A study of Mus musculus with 4 samples.

Results

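The genes described here encode the D-type cyclins (Ccnd1, Ccnd2 and Ccnd3), their partner kinases (Cdk4 and Cdk6), the Cip/Kip inhibitors Cdkn1a and Cdkn1b, and the INK4 inhibitors Cdkn2a, Cdkn2b and Cdkn2c. Members were all probe sets to which the platform annotation gives the symbol of 1 of these 10 genes and no other symbol. This rule uses no measured value. It took 24 of the 45037 probe sets tested and 10 of the 17097 genes that have a probe set of their own. There were 11 probe sets for the D cyclins, 6 for Cdk4 and Cdk6, 4 for the Cip/Kip inhibitors and 3 for the INK4 inhibitors. No filter on low values was applied, so all 24 entered the fit.

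RNA came from whole tumors of 4T1Ch9, a murine triple-negative breast cancer (TNBC) line of Balb/c background that carries a cherry tag. The study's methods describe female wild-type Balb/c mice aged 6 to 8 weeks. Into the mammary fat pad, 50000 cells were injected, and tumors grew for 10 days. Mice then received either trametinib (MEKi), an inhibitor of the kinases MEK1 and MEK2, at 1 mg/kg by daily oral gavage for 7 days, or the vehicle of polyethylene glycol and Solutol. Both groups therefore share the line, the strain, the injection site and the gavage. Each group has 2 Affymetrix MG-430PM arrays, named here MEKi 1, MEKi 2, vehicle 1 and vehicle 2 after their labels. Separate mice or pooled tumors as the origin of the arrays are not stated in the sources used here, so any p-value reflects nothing beyond the spread among 4 arrays, and that spread may be technical. All values are log2 expression values as deposited, where a difference of 1 is a doubling.

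D-type cyclins bind CDK4 and CDK6 in G1 phase and activate them. The active kinases phosphorylate the retinoblastoma protein RB, which then releases E2F transcription factors that switch on genes for DNA replication. Signaling through RAS, RAF, MEK and ERK is a well-known inducer of cyclin D1, which makes Ccnd1 a common readout of MEK inhibition. INK4 proteins bind CDK4 and CDK6 and keep them from the cyclins, whereas the Cip/Kip proteins p21 and p27 mainly restrain the CDK2 complexes that act later in G1. D cyclins differ between tissues, with cyclin D1 typical of epithelial cells and cyclins D2 and D3 prominent in lymphocytes.

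The arrays did not group by their labels. Across all probe sets, Pearson's r was 0.992 between MEKi 1 and vehicle 2 and 0.978 between MEKi 2 and vehicle 1. The arrays of the same label were less alike, with r = 0.927 for the MEKi arrays and r = 0.959 for the vehicle arrays. By the call used here (limma p under 0.05, adjusted p under 0.1 and over 1.5-fold), 0 of 45037 probe sets passed (0.0%), and 406 had an unadjusted p under 0.05 (0.901%). The array labels were kept as given, and values are shown for each array. Whether 2 of the labels were exchanged was not tested, and an exchange would change every difference between MEKi and vehicle given here. MAPK output genes, which ERK signaling induces, split the arrays as the correlations do, while other genes ran with the labels. S100a8, a neutrophil gene, read 9.99 and 11.10 in the MEKi arrays against 6.17 and 7.70 in the vehicle arrays. Of 6 adipocyte markers measured, 6 had both MEKi arrays below both vehicle arrays (9.86% of all probe sets). The epithelial keratins Krt8 and Krt18 read between 10.43 and 12.92 in all arrays, so these defining markers of the labelled tumor tissue were present. The list of 16 tumor epithelial markers had medians of 6.29 and 5.78 in the MEKi arrays and 6.40 and 6.71 in the vehicle arrays. B cell markers had a median of 10.42 in MEKi 1 and 10.03 in vehicle 2, against 4.18 in MEKi 2 and 4.30 in vehicle 1. The list for stroma and high endothelial venules of the lymph node had medians of 6.93 in MEKi 1 and 7.14 in vehicle 2, against 3.83 and 4.15, close to the lower quartile of the arrays (3.85 to 3.88), which is taken as the floor.

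None of the 24 probe sets and none of the 10 genes passed the call or an unadjusted p under 0.05 (limma), where the shares over all probe sets were 0.0% and 0.901%. By label, 9 of the 24 probe sets were higher in the MEKi arrays and 15 were lower (23776 and 21261 of all 45037). The split of the 24 became 19 and 5 when the arrays were centred on 16 tumor epithelial markers, which moved all genes by 0.52. The median log2 difference was -0.11 (0.01 over all probe sets). The differences ran from -1.02 to 0.35, with standard errors from 0.18 to 1.38, and every limma adjusted p was 1. An exact permutation test of 2 arrays against 2 cannot give a two-sided p below 0.333. The gaps between arrays of the same label were wider than the difference between labels. A gap compares 2 single arrays, whereas the label difference compares means of 2 arrays, which vary less, so the measures are unlike. The median size of the gap over the 24 probe sets was 1.15 between the MEKi arrays and 1.13 between the vehicle arrays, against 0.24 for the label difference. Over the brightest probe set of each of the 10 genes these medians were 1.06, 0.75 and 0.28, and over all probe sets 0.32, 0.26 and 0.14. In bulk tumor RNA, fewer cells of a type and less RNA per cell cannot be told apart, which holds for each value that follows.

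**Figure D1:**
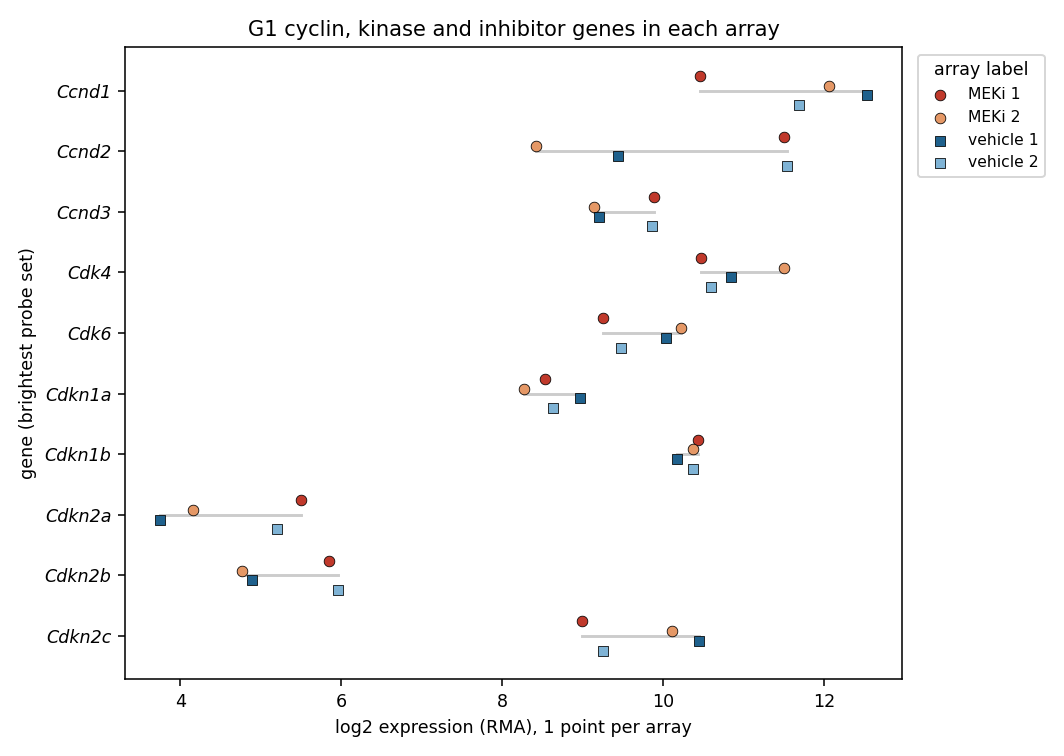
Log2 expression of the brightest probe set of each of the 10 genes, with 1 point per array (circles for MEKi, squares for vehicle) and a line over the range of the 4 arrays. Ccnd2 read 11.50 and 11.54 in MEKi 1 and vehicle 2 but 8.42 and 9.43 in MEKi 2 and vehicle 1, and only Cdkn1a had both MEKi arrays below both vehicle arrays. Positions of different genes are not comparable.

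Ccnd1, which encodes cyclin D1, read 10.45 and 12.06 in MEKi 1 and 2, and 12.53 and 11.68 in vehicle 1 and 2. MEKi 1 was the lowest and vehicle 1 the highest array, but MEKi 2 lay above vehicle 2, so the labels overlapped. MEKi minus vehicle was -0.85 ± 0.68 (SE, limma, adjusted p = 1), with a 95% interval from -2.80 to 1.10. Its size changed with every array left out, to -0.05 without MEKi 1, -1.65 without MEKi 2 (limma adjusted p = 0.999), -0.42 without vehicle 1 and -1.27 without vehicle 2. It was -0.32 after centring on tumor epithelial markers. The other Ccnd1 probe sets kept this order of arrays. The dimmest of the 3 read 7.91 and 10.42 in MEKi 1 and 2, and 11.20 and 9.17 in vehicle 1 and 2, a range of 3.29. The summed linear level of 16 tumor epithelial markers was also lowest in MEKi 1 (4952) and highest in vehicle 1 (17800), with 9010 in MEKi 2 and 9681 in vehicle 2. The bright keratins Krt8 and Krt18 were likewise lowest in MEKi 1 and highest in vehicle 1. In both, MEKi 2 lay above vehicle 2, which is the order of Ccnd1 but not of the sums. Most of the list had neither order. Of the 16 markers, 10 were higher in MEKi 1 than in MEKi 2 and 10 were higher in vehicle 2 than in vehicle 1, among them Krt19 in both cases (8.91 and 4.52 in the MEKi arrays, 9.36 and 9.42 in the vehicle arrays). The median of the list was lowest in MEKi 2 (5.78) and highest in vehicle 2 (6.71). By label 15 markers were lower, and 9 of the 16 had both MEKi arrays below both vehicle arrays (9.86% of all probe sets). In limma, 4 of the 16 had an unadjusted p under 0.05 (0.901% of all probe sets) and 0 were called. At most 1 of the 16 lay near the floor in any array. Their part in the Ccnd1 values was not tested.

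Ccnd2, which encodes cyclin D2, had the widest range of the 10 genes. It read 11.50 and 8.42 in MEKi 1 and 2, and 9.43 and 11.54 in vehicle 1 and 2. Thus the MEKi arrays differed 8.48-fold and the vehicle arrays 4.31-fold, in opposite directions by array number. The label difference was -0.53 ± 1.38 (SE, limma, adjusted p = 1), and it was 1.02 without MEKi 2 and 0.53 without vehicle 2. All 6 Ccnd2 probe sets were high in MEKi 1 and vehicle 2, lower in vehicle 1 and lowest in MEKi 2. Their label differences ran from -0.55 to -0.10, and the dimmest was near the floor in MEKi 2 (3.86). Markers of lymphocytes moved with these values. The summed linear level of 12 B cell markers was 31131 in MEKi 1 and 23623 in vehicle 2, against 689 in MEKi 2 and 979 in vehicle 1. For 13 T cell markers it was 14919 and 14880 against 536 and 1033. All 12 and all 13 were higher in MEKi 1 than in MEKi 2 and higher in vehicle 2 than in vehicle 1. Cd79a, part of the B cell receptor, read 8.91 and 4.17 in MEKi 1 and 2, and 4.19 and 8.62 in vehicle 1 and 2, and 2 of the B cell markers lay near the floor in vehicle 1. The part of these cells in the Ccnd2 values was not tested.

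Ccnd3, which encodes cyclin D3, read 9.88 and 9.14 in MEKi 1 and 2, and 9.20 and 9.86 in vehicle 1 and 2. The same arrays were high as for Ccnd2 but the range was smaller (0.75), and each label had a high and a low array. By label the difference was -0.02 ± 0.40 (SE, limma, adjusted p = 1), with a 95% interval from -1.15 to 1.11, and it was 0.35 without MEKi 2 and 0.31 without vehicle 2. A second, dimmer probe set read 7.51 and 6.34 in MEKi 1 and 2, and 4.94 and 8.43 in vehicle 1 and 2. There the vehicle arrays stood 3.49 apart, the widest gap among the 24 probe sets, and the label difference was 0.24.

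Cdk4 encodes a catalytic partner of the D cyclins. Its promoter is shown because it held the most matches of any member to CACGTG, the E-box letters bound by MYC. RefSeq windows (GRCm38.p6) of 250 bases before to 50 after the start site were matched by symbol for 8 of the 10 genes, in 12 windows. Ccnd1 and Ccnd2 had no entry. The bases before the start site follow for Cdk4 (chr10:127063285-127063534, plus strand) and Cdk6 (chr5:3343643-3343892, plus strand), 5′ to 3′, with CACGTG in capitals.
Cdk4: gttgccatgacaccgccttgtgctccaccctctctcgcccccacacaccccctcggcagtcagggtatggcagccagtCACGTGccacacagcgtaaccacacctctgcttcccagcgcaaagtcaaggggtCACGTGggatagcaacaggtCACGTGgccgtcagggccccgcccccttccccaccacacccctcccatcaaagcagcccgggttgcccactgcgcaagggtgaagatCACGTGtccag
Cdk6: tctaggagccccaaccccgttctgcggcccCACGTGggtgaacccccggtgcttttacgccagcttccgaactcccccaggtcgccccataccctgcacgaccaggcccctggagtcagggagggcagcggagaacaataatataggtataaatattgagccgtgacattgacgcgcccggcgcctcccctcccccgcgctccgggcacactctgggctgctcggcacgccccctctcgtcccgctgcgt
The Cdk4 window held 4 matches, which begin 172, 118, 98 and 11 bases before the start site, and the Cdk6 window held 1, which begins 220 bases before it. CACGTG reads the same on both strands. It stood in 7.15% of the 32851 RefSeq promoter windows and in 3 of the 12 member windows, the third being a Cdkn2c window with a match after the start site. Only 8 windows (0.0244%) held 4 or more. A match is a description of letters and not of binding.

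Cdk4 read 10.46 and 11.50 in MEKi 1 and 2, and 10.83 and 10.60 in vehicle 1 and 2. MEKi 2 was the highest and MEKi 1 the lowest array, with both vehicle arrays between them, and all 3 probe sets kept this order. MEKi minus vehicle was 0.27 ± 0.42 (SE, limma, adjusted p = 1), with a 95% interval from -0.93 to 1.47, and it was -0.25 without MEKi 2. Cdk6, the second partner of the D cyclins, read 9.24 and 10.21 in MEKi 1 and 2, and 10.03 and 9.48 in vehicle 1 and 2. It too was high in MEKi 2 and vehicle 1. The label difference was -0.02 ± 0.44 (SE, limma, adjusted p = 1), with 0.46 without MEKi 1 and 0.25 without vehicle 1. The other 2 Cdk6 probe sets had label differences of 0.12 and 0.24, and in both vehicle 2 was the lowest array. Myc, chosen after its values were seen because of the E-box letters, read 10.17 and 11.08 in MEKi 1 and 2, and 10.92 and 10.22 in vehicle 1 and 2, the same order of arrays as in Cdk4 and the brightest Cdk6 probe set but not as in Cdkn2c, whose highest array was vehicle 1. Opposite gaps within the labels, as in Myc, were found in 66.3% of all probe sets. That share covers gaps in either direction and is wider than the full order of arrays seen in Myc. The share of probe sets with that full order was not counted, so how common such a match is in these arrays is not known. Whether MYC acts on any of these genes here was not tested.

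**Figure D2:**
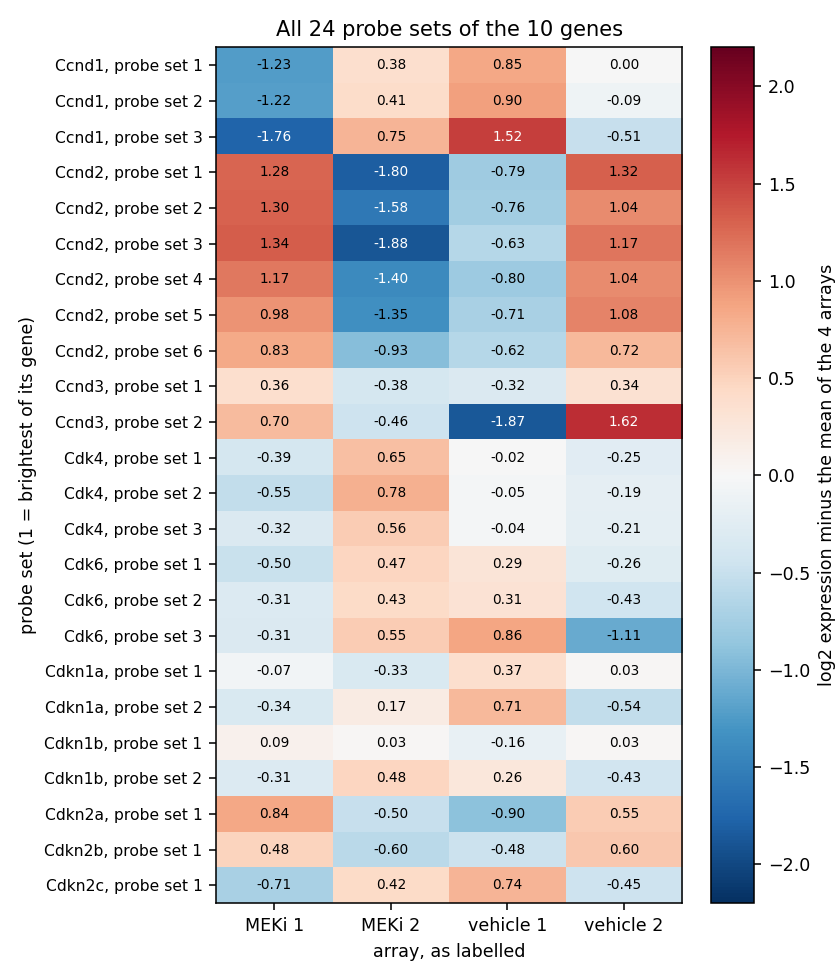
Log2 expression of all 24 probe sets in the 4 arrays, each minus the mean of its 4 values (red above, blue below that mean), with probe sets numbered from the brightest of each gene. The 6 Ccnd2 rows are red in MEKi 1 and vehicle 2 and blue in MEKi 2 and vehicle 1, while the 3 Ccnd1 rows are lowest in MEKi 1 and highest in vehicle 1.

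Cdkn1a, which encodes p21, was the only member with both MEKi arrays below both vehicle arrays. Its brighter probe set read 8.53 and 8.27 in MEKi 1 and 2, and 8.97 and 8.63 in vehicle 1 and 2. The gap between the labels was narrow, from 8.53 to 8.63. Over all probe sets, 9.86% had both MEKi arrays below both vehicle arrays and 12.1% had both above, against 1 and 0 of the 24 member probe sets. By label the difference was -0.40 ± 0.22 (SE, limma, adjusted p = 1), with a 95% interval from -1.03 to 0.24. It kept its sign without any single array, from -0.57 to -0.23, but was 0.13 after centring on the tumor epithelial markers. The second probe set read 6.91 and 7.43 in MEKi 1 and 2, and 7.97 and 6.71 in vehicle 1 and 2, so that there the labels overlapped. Cdkn1b, which encodes p27, varied least of the 10 genes by its brighter probe set. This read 10.43 and 10.37 in MEKi 1 and 2, and 10.18 and 10.37 in vehicle 1 and 2. MEKi minus vehicle was 0.13 ± 0.18 (SE, limma, adjusted p = 1), with a 95% interval from -0.37 to 0.63, the narrowest among the members. Its dimmer probe set was high in MEKi 2 (5.94) and vehicle 1 (5.72) and low in MEKi 1 (5.16) and vehicle 2 (5.04), unlike the brighter one.

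Cdkn2a encodes the INK4 inhibitor p16 and, from another start site and reading frame, the p53 activator ARF. Its upstream RefSeq window was the only member window with E2F letters and is shown for that reason (GRCm38.p6, chr4:89294620-89294869, minus strand, the 250 bases before the start site, 5′ to 3′, E2F letters in capitals).
Cdkn2a: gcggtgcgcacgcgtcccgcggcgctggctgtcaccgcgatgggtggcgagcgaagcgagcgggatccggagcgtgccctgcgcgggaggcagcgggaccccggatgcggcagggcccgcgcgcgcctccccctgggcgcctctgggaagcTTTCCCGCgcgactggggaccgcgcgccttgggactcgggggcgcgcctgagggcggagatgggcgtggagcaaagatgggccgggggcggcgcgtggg
The match begins 99 bases before the start site. The other, downstream Cdkn2a window held no E2F letters. The windows carry only the gene symbol and are not assigned here to p16 or ARF, so the letters are not placed in the p16 promoter. On either strand, TTTCCCGC, TTTCGCGC, TTTGCCGC or TTTGGCGC stood in 2.26% of all windows and in 1 of the 12 member windows. TGAGTCA, an AP-1 site, stood in 5.2% of all windows and in none of the 12. CCGGAAG, an ETS site, stood in 8.86% of all windows and in 1 of the 12, the downstream window of Ccnd3. GGGCGG, the GC box, stood in 35.7% of all windows and in 9 of the 12. The array has 1 Cdkn2a probe set, so the transcripts of p16 and ARF were not separated.

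Cdkn2a read 5.50 and 4.15 in MEKi 1 and 2, and 3.75 and 5.20 in vehicle 1 and 2. It was near the floor in vehicle 1, and the high arrays were again MEKi 1 and vehicle 2. The label difference was 0.35 ± 0.74 (SE, limma, adjusted p = 1), and it was -0.33 without MEKi 1 and -0.38 without vehicle 1. Cdkn2b, which encodes p15, read 5.85 and 4.77 in MEKi 1 and 2, and 4.89 and 5.96 in vehicle 1 and 2, with the same 2 arrays high. Its label difference was -0.12 ± 0.58 (SE, limma, adjusted p = 1), and it was 0.43 without MEKi 2 and 0.42 without vehicle 2. Cdkn2c, which encodes p18, ran the other way, with 8.99 and 10.11 in MEKi 1 and 2, and 10.44 and 9.25 in vehicle 1 and 2. This is the array order of Ccnd1. By label the difference was -0.29 ± 0.62 (SE, limma, adjusted p = 1), and it was 0.27 without MEKi 1 and 0.30 without vehicle 1. In each INK4 gene the labels overlapped.

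**Figure D3:**
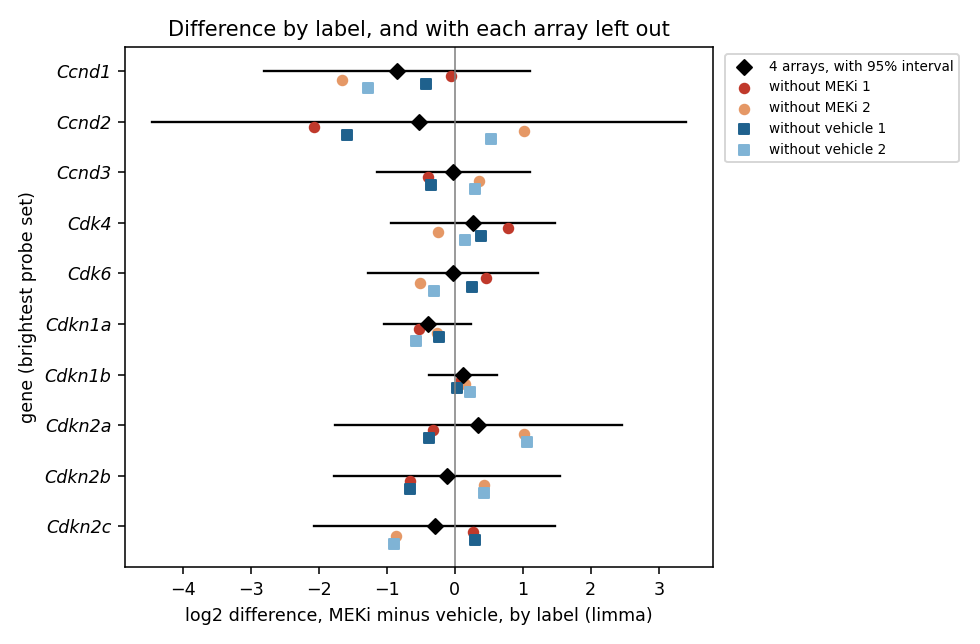
Log2 difference of MEKi minus vehicle by label for the brightest probe set of each gene (diamonds, with the 95% interval from limma as a line), and the same with each array left out (colored points). Every interval crosses 0. Only Ccnd1, Cdkn1a and Cdkn1b keep their sign without any single array.

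The members were also set side by side in each of the 6 pairs of arrays. Between MEKi 1 and MEKi 2, 15 of the 24 probe sets were over 1 log2 unit apart (16.6% of all probe sets), and between vehicle 1 and vehicle 2, 13 were (9.95%). Between MEKi 1 and vehicle 1, 14 were (12.6%), and between MEKi 2 and vehicle 2, 11 were (14.2%). Of the 24, 6 read Ccnd2 and 3 read Ccnd1, so these are not counts of separate genes. By the brightest probe set, 6 of 10 genes were that far apart between the MEKi arrays and 4 between the vehicle arrays. It was 4 of 10 between MEKi 1 and vehicle 1, and 3 of 10 between MEKi 2 and vehicle 2. The arrays of unlike number differed least. Between MEKi 1 and vehicle 2, 3 of the 24 were over 1 log2 unit apart (0.935% of all probe sets), and these were the 3 Ccnd1 probe sets. Between MEKi 2 and vehicle 1, 3 were (5.11%), from Ccnd2 and Ccnd3. By the brightest probe set, 1 of 10 genes was that far apart in each of these pairs of unlike number. Bright probe sets vary more between these arrays than dim ones. In the brighter part of the array, above the median of the mean level, the median difference was 0.55 between the MEKi arrays and 0.39 between the vehicle arrays. For the 24 member probe sets it was 1.15 and 1.13, and for the brightest probe set of each member gene 1.06 and 0.75. Since pairs share arrays, they are given as values side by side.

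The direction of the gap within a label was compared between labels. In 23 of the 24 probe sets, array 1 minus array 2 had the opposite sign in MEKi and in vehicle, as in 66.3% of all probe sets. The exception was the brighter probe set of Cdkn1a. In 19 of the 24, both gaps within a label were larger than the label difference (56.2% of all probe sets), which is a difference of means and varies less. By gene, this held for 7 of 10, the others being Cdk4, Cdkn1a and Cdkn1b.

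**Figure D4:**
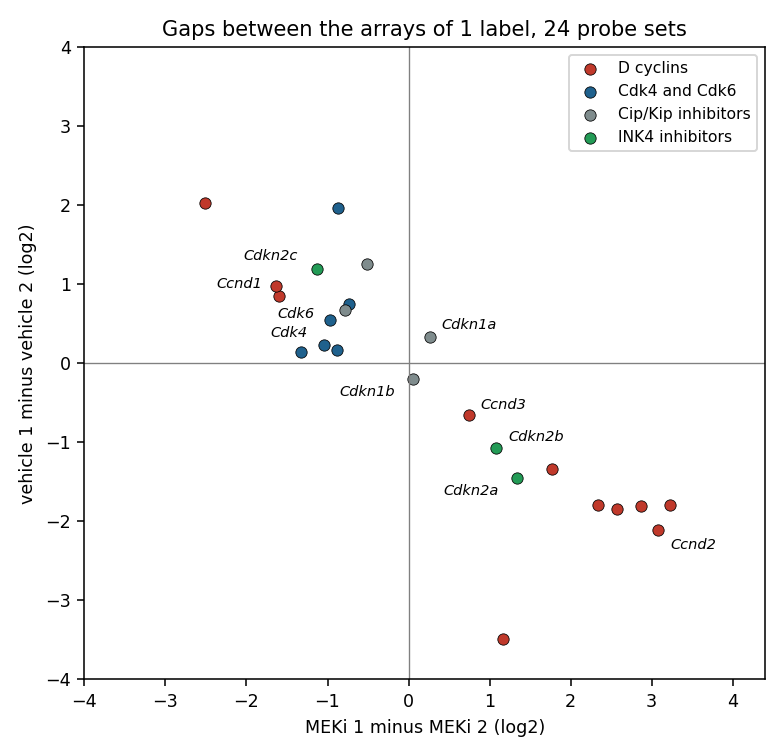
Gap between the MEKi arrays (MEKi 1 minus MEKi 2, log2) against the gap between the vehicle arrays (vehicle 1 minus vehicle 2, log2), with 1 point for each of the 24 probe sets, colored by role and named at the brightest probe set of a gene. In 23 of the 24 the gaps have opposite signs, from Ccnd1, Cdk4, Cdk6 and Cdkn2c at the upper left to Ccnd2, Ccnd3, Cdkn2a and Cdkn2b at the lower right.

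Genes most like the 3 members with the widest ranges were sought among 10577 genes with a mean above the median of all probe sets (5.15). Cdkn2a itself lay below that cut (mean 4.65), so genes as dim were not candidates. The closest genes had the smallest root mean square difference between profiles centred on their own mean over the 4 arrays. For Ccnd2 these were Myb, a transcription factor of blood progenitors (0.030), Sh3kbp1, an adaptor protein (0.069), Tmem154 (0.078) and Chrdl1, a BMP antagonist (0.088). Myb read 7.22 and 4.10 in MEKi 1 and 2, and 5.16 and 7.30 in vehicle 1 and 2. For Ccnd1 they were Trim47 (0.074), the myeloid receptor gene Clec5a (0.103), Krt8, a keratin of simple epithelia (0.138) and Fbp1, an enzyme of gluconeogenesis (0.147). Krt8 read 10.54 and 12.11 in MEKi 1 and 2, and 12.92 and 11.75 in vehicle 1 and 2. For Cdkn2a they were P2ry10b (0.047), Tspyl4 (0.049), Spn, the leukocyte sialoglycoprotein CD43 (0.068), and Cep97, a centrosomal protein (0.071). These profiles have 4 points each and are descriptions.

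Of the RB-E2F axis and other G1 genes, 29 of 31 were measured and 0 were called in either direction, with 14 higher and 15 lower by label and a median difference of -0.01. E2f1, an E2F factor that RB holds back, read 7.04 and 8.0 in MEKi 1 and 2, and 8.41 and 7.66 in vehicle 1 and 2 (label difference -0.51 ± 0.47, SE). This is the array order of Ccnd1 and Cdkn2c. Ccne2, which encodes cyclin E2, had a label difference of -0.36 ± 0.32. The largest positive differences were those of Mnat1 (0.38 ± 0.59) and Cdk7 (0.33 ± 0.24), subunits of the kinase that activates other CDKs. In 26 of the 29 genes the gap within a label had opposite signs in MEKi and vehicle. E2f2, named after its values were seen, read 9.17 and 6.12 in MEKi 1 and 2, and 6.89 and 8.93 in vehicle 1 and 2, with the same high arrays as Ccnd2.

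S phase and mitosis genes, many of them E2F targets, had medians close to each other in the 4 arrays. These were 9.85 and 10.10 in MEKi 1 and 2, and 10.08 and 10.06 in vehicle 1 and 2. Of 25 listed genes 24 were measured and 0 were called. By label 6 were higher and 18 lower (median -0.09), against 23776 and 21261 of all 45037 probe sets. In 3 of the 24 both MEKi arrays lay below both vehicle arrays, against 9.86% of all probe sets. The largest differences were those of Ccnb2, which encodes a mitotic cyclin (-0.34 ± 0.34, SE), and Mybl2 (-0.31 ± 0.19), and on the other side those of the replication licensing genes Mcm3 (0.21 ± 0.29) and Cdt1 (0.09 ± 0.29).

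The MAPK output genes formed a list of 13, all of them measured. All 13 were lower in MEKi 1 than in MEKi 2, and 12 of 13 were lower in vehicle 2 than in vehicle 1. Their medians were 7.89 and 9.75 in MEKi 1 and 2, and 9.36 and 8.41 in vehicle 1 and 2, with 6 genes higher and 7 lower by label, none called and a median label difference of -0.03. Fosl1, an AP-1 subunit, read 4.89 and 8.08 in MEKi 1 and 2, and 8.23 and 6.56 in vehicle 1 and 2, in the order of Ccnd1. Etv5, an ETS factor, had a label difference of -0.74 ± 1.21 (SE), and the feedback inhibitors Spry1 and Spry2 had 0.52 ± 1.53 and 0.48 ± 1.27. Of the p53 targets, a list added because p53 induces Cdkn1a, 9 of 10 were measured and 0 called. By label 2 were higher and 7 lower (23776 and 21261 of all 45037 probe sets). Trp53inp1 (-0.45 ± 1.69) and Ccng1 (-0.37 ± 0.63) were the lowest by label, and Bbc3 (0.05 ± 0.21) and Mdm2 (0.01 ± 0.33) the highest. Trp53inp1 read 11.53 in MEKi 1 and 11.39 in vehicle 2 against 7.74 and 8.77, an order that Cdkn1a did not share.

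**Figure D5:**
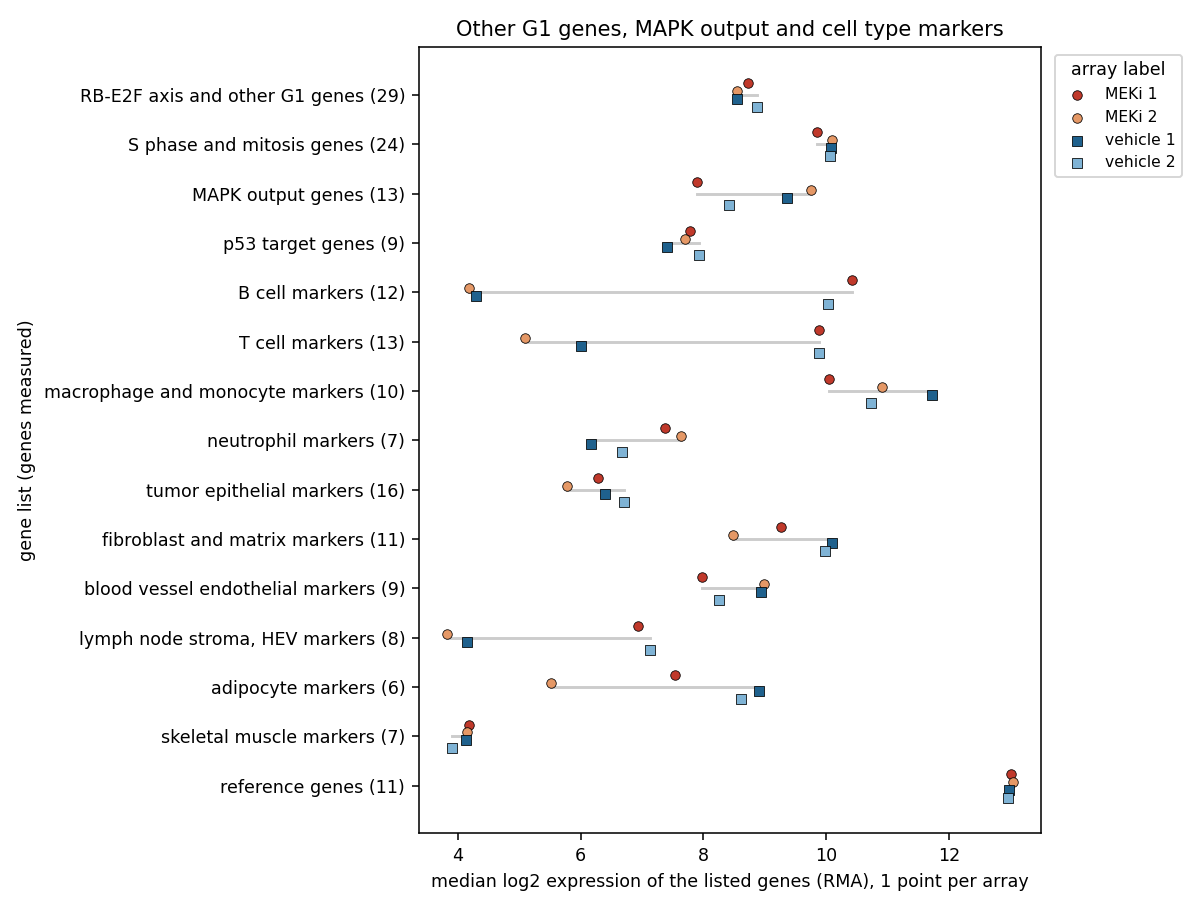
Median log2 expression of each gene list, 1 point per array and measured genes in brackets, circles for MEKi and squares for vehicle. B cell medians were 10.42 and 10.03 in MEKi 1 and vehicle 2 against 4.18 and 4.30 in MEKi 2 and vehicle 1, while the S phase and mitosis medians stayed between 9.85 and 10.10. Positions of different lists are not comparable.

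Other cell type lists followed in part the same arrays. Macrophage and monocyte markers, 10 of 12 measured, had a summed linear level of 16804 and 23955 in MEKi 1 and 2, and 38988 and 22868 in vehicle 1 and 2, and none was near the floor. Blood vessel endothelial markers had medians of 7.98 and 8.99 in MEKi 1 and 2, and 8.93 and 8.25 in vehicle 1 and 2. The endothelial list was mixed, since 4 of its 9 markers were higher in MEKi 1 than in MEKi 2, among them Pecam1 (9.59 and 8.99). Of 7 neutrophil markers measured, 6 were higher in the MEKi arrays by label, with medians of 7.37 and 7.63 against 6.17 and 6.68, and 4 of the 7 had an unadjusted p under 0.05 in limma with no adjusted p under 0.1. Mmp9 went the other way, with 7.37 and 8.89 in the MEKi arrays and 11.23 and 9.39 in the vehicle arrays. Fibroblast and matrix markers had medians of 9.26 and 8.49 in the MEKi arrays and 10.09 and 9.98 in the vehicle arrays. Adipocyte markers had medians of 7.54 and 5.52 against 8.91 and 8.61, and skeletal muscle markers had low medians, from 3.90 to 4.19, with 1 or 2 of the 7 near the floor in each array. The reference genes had medians from 12.96 to 13.04. The part of any of these cell types in the values of the 10 genes was not tested.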

How the data were processed

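Total RNA of mouse tumors was measured on 4 Affymetrix MG-430PM arrays, 2 labelled MEKi and 2 labelled vehicle. The authors deposited log2 expression values, 1 per probe set and array, made with RMA (background correction and quantile normalization) using the AFFY package in R. No version of RMA is given in the sources used here, and no filter is stated. Quantile normalization gives the arrays nearly the same distribution (medians 4.98 to 5.14), so a shift shared by most genes cannot be seen. The table holds 45141 probe sets, and 104 of these are array controls and were not tested. The platform annotation gave 28898 of the tested probe sets 1 gene symbol, 551 several and 15588 none, and 28689 matched the RefSeq gene table by Entrez identifier, with 0 symbols changed.

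Probe sets were fitted by label with linear models with moderated variance (lmFit, eBayes; limma 3.58.1, R 4.3.3; two-sided), with Benjamini-Hochberg adjustment over all 45037. For a call, the thresholds of the study were used (p under 0.05, adjusted p under 0.1 and over 1.5-fold). The brightest probe set stood for a gene. A value was near the floor if it did not exceed its array's lower quartile. The fit was also run on simulated data with known changes. No recovery rate is given here, so that run does not show which changes could be called at the spread of these arrays. Named genes were all members, the 2 genes of each pathway list with the largest difference in each direction, the first markers of a list and the 4 genes most like the 3 members with the widest range, unless said otherwise. The members and lists were chosen with earlier results of these data known. The fit was repeated with 12 other settings, which were the replicate block, each array left out, centring on reference genes or on epithelial markers, averaging the probe sets of each gene, dropping the probe sets with the lowest means (0.25 of them), an intensity trend, no moderation and an adjusted p under 0.05. Promoter windows came from RefSeq (GRCm38.p6) and were searched with Python 3.11.15. Array values have no counts, so the number of arrays limits the precision.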

Additional observations from a re-analysis of the deposited data

How the results depend on the processing

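The count of calls was 0, over all probe sets tested and over the members, in each of the 11 other settings that test probe sets. With the array number as a replicate block the count was 0. The deviations of same-numbered arrays from their label means correlated at r = -0.764, so the numbers were not taken to pair the arrays. A crossed pairing, chosen after seeing the data, also gave 0 calls. Leaving out each array in turn gave a median over the member probe sets from -0.27 to 0.16, and turned the direction of 7 genes, with label differences from -2.07 to 1.02 for Ccnd2, -0.39 to 0.35 for Ccnd3, -0.25 to 0.79 for Cdk4, -0.51 to 0.46 for Cdk6, -0.38 to 1.07 for Cdkn2a, -0.66 to 0.43 for Cdkn2b and -0.89 to 0.30 for Cdkn2c. The lone array of a label was then assumed to vary like the others. Centring on 16 tumor epithelial markers moved all genes by 0.52, and turned the median of the member probe sets to 0.42, Ccnd3 to 0.50, Cdk6 to 0.50, Cdkn1a to 0.13, Cdkn2b to 0.41 and Cdkn2c to 0.23. Such centring moves every label difference by the same amount, so it cannot change the order of the genes. Centring on 11 reference genes moved all genes by -0.06 and turned none. After averaging the probe sets of each gene, Ccnd3 was at 0.11 and Cdk6 at 0.11. The causes were not tested. Cdkn2a and the dimmest Ccnd2 probe set lay near the floor in 1 array, so their lowest values may be background. The floor is a chosen cut at the lower quartile and not a limit of the values.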
